A study of Homo sapiens with 16 samples.

Results

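The comparison described here sets 3 arrays of A673 cells at 36 h of doxycycline against 4 arrays at 0 h, chosen by the times in the sample titles out of 16 arrays taken at 6 times. A673 is an established Ewing sarcoma line, and the cells were those of 1 clone, Asp14, which holds a doxycycline-inducible short hairpin RNA against the fusion gene EWS-FLI1. The 36 h cells had received doxycycline at 1 ug/ml and the 0 h cells had not, while the clone and the hairpin construct were common to both groups. Because the 0 h arrays are the only arrays without doxycycline, knockdown, time in culture and the drug itself cannot be told apart. All cells of the series came from this clone, so differences between clones were not analysed here.

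Ewing sarcoma arises from a chromosomal translocation that joins the transactivation domain of EWSR1 to the DNA-binding domain of FLI1, an ETS-family transcription factor. The fusion protein switches genes on through repeats of the ETS core motif and lowers the expression of others, many of which are typical of mesenchymal cells. Sustained growth of Ewing sarcoma cells depends on it, and E2F factors, which drive the genes of DNA replication and are held in check by the pocket proteins of the RB family, are among the regulators that act downstream.

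Values are log2 expression levels per probe set made by the authors with GCRMA, a method that corrects the background of Affymetrix probes by their sequence. For each gene the probe set with the highest mean was used, and 7304 genes that reached log2 4 on at least 2 arrays were tested with limma, with a Benjamini-Hochberg adjusted p under 0.05 as the threshold. The words "rose", "fell", "higher" and "lower" below are used of genes past it. For 404 of the 7304 genes every probe set was below log2 4 on all 0 h arrays, so they reached log2 4 only on later arrays. A call of higher is partly built in for such genes, and so are the higher counts of lists that hold them. Labels number the replicates without saying that they came from separate cultures, so the p-values measure the spread between these arrays, which may be technical. Replicates 2 and 3 were close to each other at each time that has them: the SD of their difference over the tested genes was 0.176 at 0 h and 0.186 at 36 h, while every other pair at these times lay between 0.368 and 0.528. At 36 h replicate 1 therefore stood apart from the other 2. As a sign of RNA length, the ACTB signal at the 3′ end exceeded that at the 5′ end by a log2 difference that was 1.47 to 2.06 at 0 h and 2.09 to 2.45 at 36 h (difference 0.415, exact permutation p = 0.0571, two-sided, over 35 splits). The same measure for GAPDH was 0.0676 to 0.134 at 0 h and 0.171 to 0.19 at 36 h, a difference of 0.0648 with an exact permutation p of 0.0286, the smallest that 35 splits can give. The part of RNA quality in the results below was not tested beyond the fits with the ACTB measure as a covariate.

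The cells were compared with markers of their labelled type. NKX2-2, STEAP1, BCL11B and NPY1R, known as Ewing sarcoma genes, read from 9.05 to 11.81 at 0 h, and CD99, the surface antigen used in diagnosis, had a mean of 13.62 ± 0.22 (SD, n = 4). All 8 measured markers of blood cells and all 8 of epithelial cells stayed below log2 4 on each of the 7 arrays, and their summed levels on the log2 scale were 5.23 to 5.26 at 0 h and 5.19 to 5.23 at 36 h for blood cells and 5.33 to 5.36 and 5.31 to 5.33 for epithelial cells. Of 8 endothelial markers, 8 were below log2 4 at 0 h and 7 at 36 h, the exception being KDR.

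The hairpin's target was far lower at 36 h. FLI1, whose probe sets read the 3′ part of the fusion in this line, was at 10.17, 10.08, 10.06 and 9.99 at 0 h and at 6.34, 6.48 and 6.41 at 36 h. The 2 groups were separated by more than 3 log2 units, and the change was -3.67 ± 0.14 (SE, adjusted p = 1.1e-09), or 12.7-fold. EWSR1, which gives the 5′ part of the fusion and is also transcribed from the intact allele, went from a mean of 9.35 to 8.77, a change of -0.59 ± 0.09 (adjusted p = 5.9e-05). FLI1 at 36 h was also below its 18 h level, by 0.47 on the log2 scale (adjusted p = 0.025).

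Of the 7304 genes tested, 4772 (65.3%) passed the threshold at 36 h against 0 h: 2427 (33.2%) were higher and 2345 (32.1%) were lower. With a change of at least 1 on the log2 scale as well, 975 (13.3%) were higher and 908 (12.4%) lower. The median change over all genes tested was 0.02. With replicates 2 and 3 averaged as 1 sample, 4051 genes passed. Centring each array on its median moved the median change of all genes to -0.09 and the split to 2038 higher and 2752 lower genes, so that 42.5% of the called genes were higher and not 50.9%. Against a background this broad, a share of a gene group near 33.2% higher or 32.1% lower is no result about that group.

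Receptor, chemokine, secreted and matrix genes were among the 12 largest increases. PDGFRA, the alpha receptor for platelet-derived growth factor, read 3.84, 3.24, 3.26 and 3.78 at 0 h and 11.78, 10.88 and 10.83 at 36 h (change 7.64 ± 0.32, adjusted p = 1.2e-09). This probe set was below log2 4 on all 0 h arrays, so the size of its change rests on values that carry little information. It is 1 of 3 PDGFRA probe sets, and their mean changed by 2.78, with 1 of the others at 4.79 at 0 h and 5.53 at 36 h. CXCL14, a chemokine, was between 1.94 and 2.07 on the 4 arrays of 0 h and at 9.12, 9.85 and 9.61 at 36 h (change 7.52 ± 0.39, adjusted p = 4.4e-09). Its 0 h values also lie below log2 4, where GCRMA values carry little information, so the fold is given as a bound that sets the 36 h mean against log2 4: at least 46.1-fold higher. On the same terms DKK1, a secreted WNT antagonist, was at least 23.7-fold higher (change 6.70 ± 0.50), MGP, the matrix Gla protein that inhibits calcification, at least 27.7-fold (6.67 ± 0.27), CLIP3 at least 40.7-fold (5.78 ± 0.44) and WIPI1, an autophagy protein that binds phosphoinositides, at least 16.1-fold (5.46 ± 0.46).

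Apart from CA12, the others among the 12 largest increases reached log2 4 at 0 h on some or all arrays. IGFBP5, which binds insulin-like growth factors, read 5.00, 4.90, 4.69 and 6.60 at 0 h and 12.55, 11.30 and 11.38 at 36 h (change 6.45 ± 0.44; mean of its 5 probe sets 3.58). COL6A3, a chain of type VI collagen, had 0 h values of 4.68, 3.96, 3.52 and 6.15 and 36 h values of 10.51, 10.79 and 10.49, a change of 6.02 ± 0.48. For both genes replicate 4 was the highest array at 0 h, and the 36 h arrays lay far above it. SPRY1, a feedback inhibitor of receptor tyrosine kinase signalling, changed by 5.57 ± 0.26, the growth arrest gene GAS2 by 5.89 ± 0.43, and the transcription factor TFAP2B by 5.66 ± 0.67. The carbonic anhydrase CA12 changed by 5.89 ± 0.42 with a probe set that was below log2 4 on all 0 h arrays, and the mean of its 6 probe sets changed by 3.33.

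DNA replication genes stood beside fusion targets among the 12 largest decreases. CALCB, which encodes a calcitonin gene-related peptide, read 8.82, 8.44, 8.28 and 9.58 at 0 h and 4.39, 3.26 and 3.70 at 36 h, a change of -5.00 ± 0.32 (adjusted p = 2.9e-08). MCM10, needed to start DNA unwinding at origins, was between 10.36 and 10.43 at 0 h and at 5.83, 4.75 and 5.98 at 36 h (change -4.89 ± 0.27, adjusted p = 7.5e-09). RRM2, a subunit of ribonucleotide reductase, the enzyme that makes deoxyribonucleotides, was the brightest of the 12 at 0 h, with values of 13.64 to 13.73, and stood at 9.33, 9.47 and 9.80 at 36 h (change -4.14 ± 0.17, adjusted p = 1.1e-09). No 36 h array of these 3 genes came within 3 log2 units of a 0 h array. CDC45, a subunit of the replicative helicase, was below log2 4 at 36 h and at least 22.7-fold lower. ORC1, the largest subunit of the origin recognition complex, fell by 4.35 on the log2 scale, the helicase BLM by 4.18, the phosphatase inhibitor PPP1R1A by 4.51 and the proteoglycan CSPG5 by 4.05. The nucleoside transporter SLC29A1 was at least 6.33-fold lower, the protocadherin PCDH8 at least 6.32-fold, the histone methyltransferase SUV39H2 at least 5.40-fold and the phosphatase CDC25A, which activates cyclin-dependent kinases, at least 6.64-fold.

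**Figure D1:**
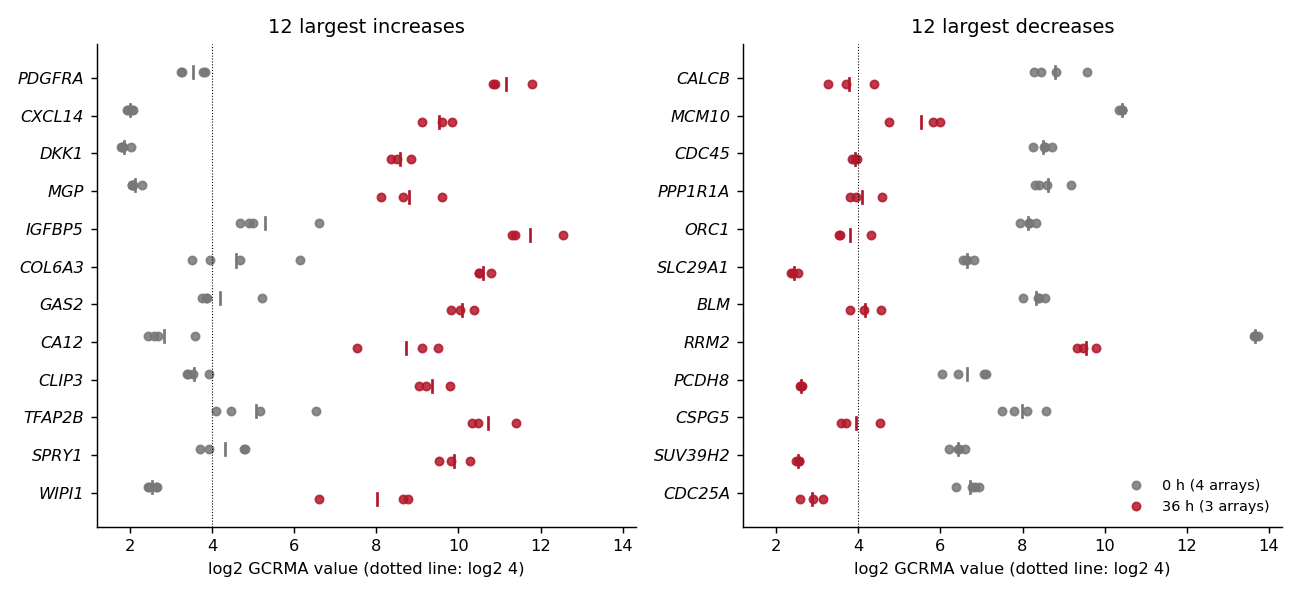
Log2 GCRMA values (x axis) of the 12 genes with the largest increases and the 12 with the largest decreases at 36 h against 0 h among genes whose arrays do not overlap; each dot is 1 array, each short bar the mean of a group, and the dotted line marks log2 4. The 36 h arrays of PDGFRA lie at 10.83 and above and its 0 h arrays at 3.84 and below, while RRM2 goes from about 13.7 to between 9.33 and 9.80.

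By mean level, the 5 brightest genes with a change of at least 1 included 2 that rose and 3 that fell. COL3A1, a fibrillar collagen, rose from 12.92 ± 0.32 (SD, n = 4) to 14.74 ± 0.03 (n = 3) and IGFBP2 from 11.72 ± 0.11 to 13.65 ± 0.11. The chaperonin subunit CCT2 fell by 1.12, the lactate dehydrogenase LDHA by 1.15 and the tetraspanin TSPAN13 by 1.05 on the log2 scale. The COL3A1 call was lost without probe sets whose identifiers end in _x_at or _s_at, which can also read related transcripts: the gene then changed by 0.29 (adjusted p = 0.346). The probe set left had means of 3.09 at 0 h and 3.38 at 36 h, both below log2 4, where values carry little information. Beside the one used, the _x_at and _s_at probe sets of COL3A1 changed by 2.57 and 2.23.

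**Figure D2:**
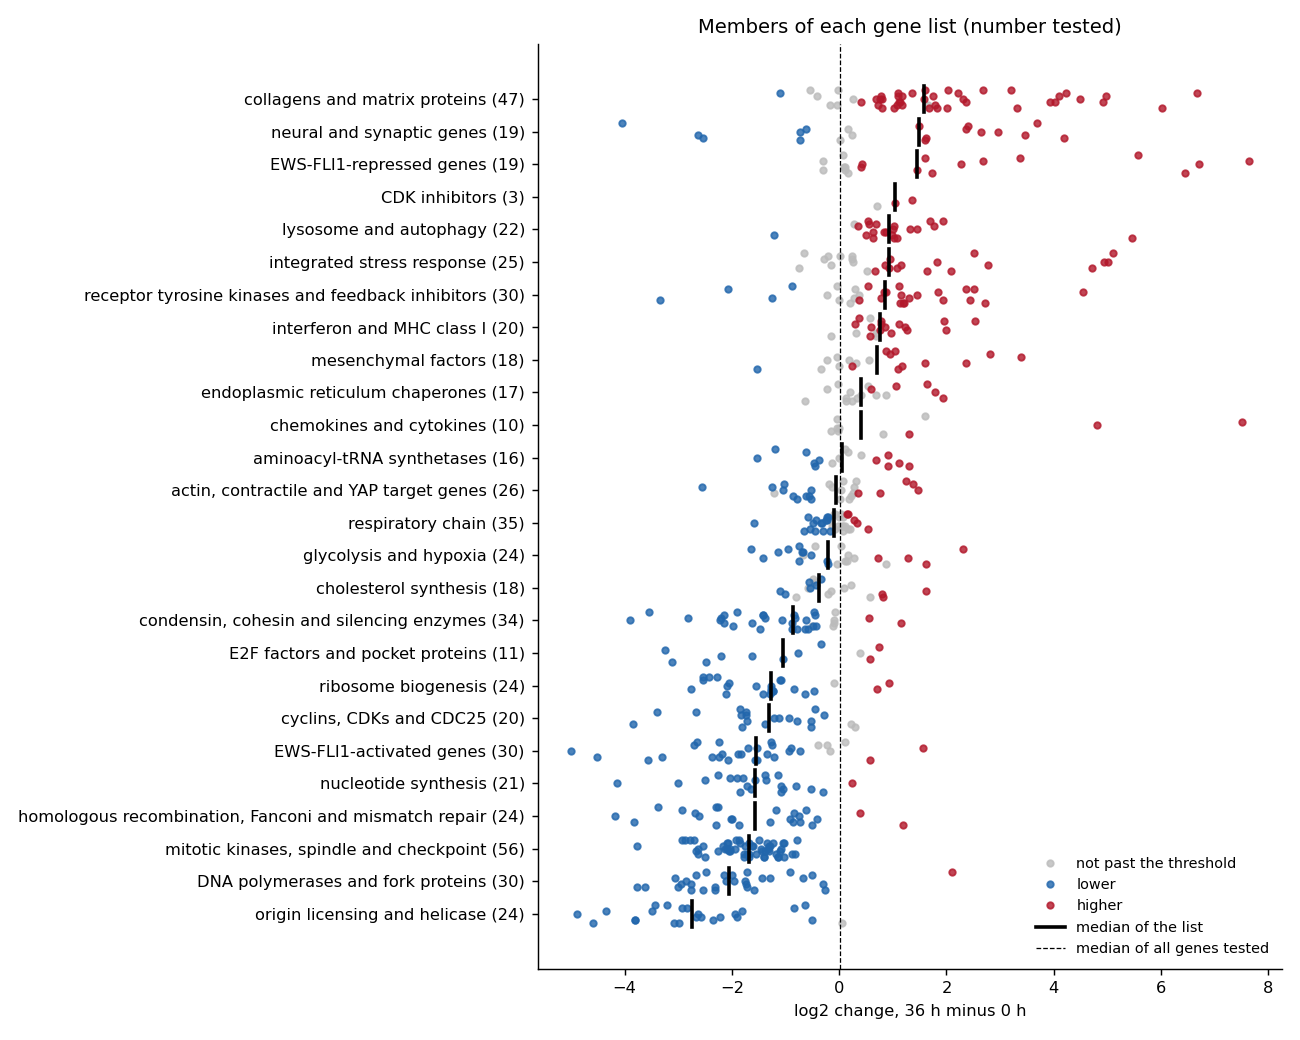
Log2 change at 36 h against 0 h (x axis) of each tested member of 26 gene lists, ordered by median; each dot is a gene, blue and red dots are genes past the threshold, grey dots are not, black bars are list medians and the dashed line is the median of all genes tested. Medians run from -2.75 for origin licensing genes to 1.57 for collagens and matrix proteins.

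Gene lists were read by their counts and medians beside those of all genes. Members named beyond the rule for named genes were chosen after their values were seen. Of 30 tested genes known to be activated by the fusion, 24 fell and 2 rose, with a median change of -1.55. After CALCB and PPP1R1A the largest decreases were in CLDN1, a tight junction protein (-3.57 ± 0.27), and ADRB3, a beta-adrenergic receptor (-3.30 ± 0.20). The neuropeptide Y receptor NPY1R read 11.30, 10.79, 10.73 and 10.68 at 0 h and 8.39, 8.24 and 8.05 at 36 h (change -2.65 ± 0.19). The membrane protein STEAP1 fell by 2.25, the zinc finger factor BCL11B by 2.19 and the homeobox factor NKX2-2 by 1.25 on the log2 scale. CD99 changed by 0.12 and did not pass the threshold (adjusted p = 0.356).

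GLI1, the effector of hedgehog signalling, moved against its list. It read 4.27, 4.27, 3.93 and 3.79 at 0 h and 4.69, 6.21 and 6.00 at 36 h (change 1.57 ± 0.30, adjusted p = 0.0004), while the 53 h arrays were at 4.37 and 4.26. Replicate 1 was the lowest of the 36 h arrays. The uridine phosphorylase UPP1 also rose, by 0.58 (adjusted p = 0.0189), but lost its call with arrays centred (adjusted p = 0.0632), with replicates 2 and 3 averaged (0.0512), without replicate 1 of 0 h (0.0523) and without replicate 3 of 36 h (0.0504).

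Of 19 genes known to be repressed by the fusion, 12 rose and 0 fell (median 1.45). Beside PDGFRA, DKK1, IGFBP5 and SPRY1 they included TGFBR2, the type II receptor for TGF-beta (1.74), and the forkhead factors FOXO1 (2.68) and FOXO3 (1.60). LOX, which cross-links collagen, also rose, by 2.27 ± 0.81 (adjusted p = 0.025). Its arrays were widely spread, with an SD of 1.5 at 0 h and 1.1 at 36 h. The insulin-like growth factor binding protein IGFBP3 changed by 0.07, and CCN1 and CCN2, both targets of YAP, by 0.11 and 0.09, none past the threshold.

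Of 11 tested E2F factors, partners and pocket proteins, 8 fell and 2 rose (median -1.05). E2F1, an activator of S-phase genes, read 8.10, 8.07, 8.01 and 8.17 at 0 h and 5.05, 4.82 and 5.03 at 36 h (change -3.12 ± 0.13, adjusted p = 1.2e-09). E2F8, an atypical repressor that E2F1 itself induces, read 7.71, 7.92, 7.87 and 7.12 at 0 h and 4.40, 4.39 and 4.44 at 36 h (change -3.24 ± 0.26). The groups did not overlap for either gene, and both were also below their 18 h levels (36 h less 18 h of -1.24 and -2.53). E2F5, a partner of RBL2, changed by -2.20 ± 0.15, and its 36 h level less that at 18 h was -0.05. The dimer partner TFDP1 fell by 1.62, E2F3 by 1.05 and the repressor E2F6 by 0.78 on the log2 scale.

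Pocket proteins went different ways. RBL1, or p107, read 7.15, 7.11, 7.16 and 6.72 at 0 h and 5.00, 4.25 and 4.42 at 36 h (change -2.48 ± 0.23, adjusted p = 6.7e-07). RBL2, or p130, which represses E2F targets in resting cells, read 9.20, 8.88, 8.76 and 8.61 at 0 h and 9.56, 9.41 and 9.35 at 36 h, a rise of 0.58 ± 0.14 (adjusted p = 0.00195). LIN37, a subunit of the DREAM complex that RBL2 belongs to, rose by 0.73 ± 0.13. The RBL2 call was lost with the ACTB measure as a covariate (0.31, adjusted p = 0.0635). The other RBL2 probe set had means of 5.41 at 0 h and 5.64 at 36 h, a change of 0.23 ± 0.22. RB1 changed by -0.34 (adjusted p = 0.0425), a call lost in 9 alternatives, among them replicates 2 and 3 averaged (adjusted p = 0.149) and 6 fits that each left out 1 array (adjusted p 0.053 to 0.114). TFDP2 changed by 0.39 (adjusted p = 0.0714), passed without replicate 2 of 36 h (0.54, adjusted p = 0.0253), and its other probe set changed by -0.56.

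Of the CDK inhibitor genes 3 passed the filter on low values, of which 2 rose and 0 fell. CDKN1B, or p27, rose from 10.55, 10.33, 10.42 and 10.02 at 0 h to 11.24, 11.37 and 11.51 at 36 h (1.04 ± 0.15, adjusted p = 3.1e-05). CDKN1A, or p21, read 8.24, 7.02, 7.24 and 7.53 at 0 h and 8.02, 8.18 and 8.40 at 36 h, so that the groups overlapped (0.70 ± 0.33, adjusted p = 0.0807). Without replicate 1 of 0 h, the highest of its 0 h arrays, CDKN1A changed by 0.94 (adjusted p = 0.0183). CDKN1C, or p57, was below log2 4 at 0 h and at 4.90, 4.29 and 2.89 at 36 h (1.35 ± 0.40, adjusted p = 0.00921, at least 1.02-fold higher; mean of its 5 probe sets 0.28), and its call was lost without replicate 1 of 36 h (adjusted p = 0.0555).

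**Figure D3:**
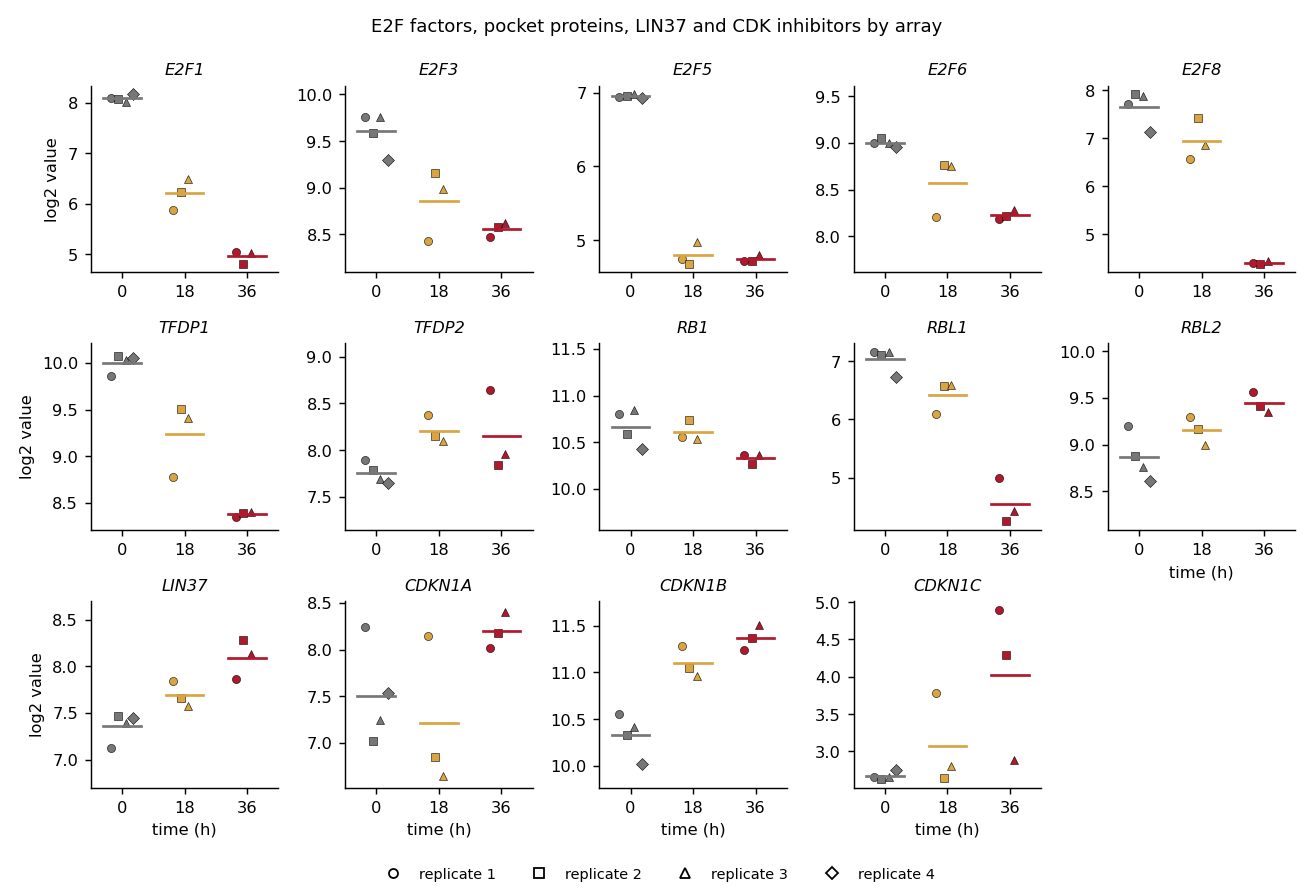
Log2 values (y axis, 1 scale per gene) of the tested E2F factors, partners, pocket proteins, LIN37 and CDK inhibitors at 0 h, 18 h and 36 h (x axis); each symbol is 1 array, its shape gives the replicate number, and bars are group means. E2F1 falls from 8.01 or more to 5.05 or less, while CDKN1B moves the other way, from 10.55 or less to 11.24 or more.

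Cyclins, cyclin-dependent kinases and CDC25 phosphatases were lower in 18 of 20 cases and higher in 0 (median -1.30). CDK2, the kinase of the G1 to S transition, read 9.04, 9.18, 9.17 and 9.40 at 0 h and 6.49, 6.49 and 6.61 at 36 h (change -2.66 ± 0.13, adjusted p = 2.7e-09). Its partner CCNE2 read 6.59 to 7.28 at 0 h and 4.11, 2.99 and 4.00 at 36 h (change -3.41 ± 0.31). Cyclin F, CCNF, fell by 1.85. CDK6 and CDK7 changed by 0.29 and 0.21 without passing the threshold. In 6 alternatives, among them the fits without replicate 4 of 0 h and without replicate 1 of 36 h, 1 member of this list was higher.

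Genes that license and open replication origins had the lowest median of the lists, -2.75, and 23 of 24 fell. ORC4 was the exception, with a change of 0.05. The 6 subunits of the MCM2 to MCM7 helicase changed by between -3.50 and -2.35, and the 4 GINS subunits, which join it in the active helicase, by between -3.81 and -2.94. CDC6, the loader of that helicase, read 9.12, 9.42, 9.49 and 9.51 at 0 h and 5.11, 5.46 and 6.13 at 36 h (change -3.82 ± 0.31, adjusted p = 2.0e-07). At 18 h, 18 of the 24 were already lower than at 0 h, and 22 were lower at 36 h than at 18 h, beside 22.9% of all genes. The share of all genes that were lower at 18 h against 0 h was not counted. This and the later counts at 18 h against 0 h therefore have no background beside them.

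DNA polymerases and replication fork proteins followed, with 29 of 30 lower and a median of -2.06. POLE2, a subunit of the leading-strand polymerase, read 9.23, 8.99, 9.13 and 9.07 at 0 h and 5.62, 5.00 and 5.37 at 36 h (change -3.77 ± 0.19, adjusted p = 3.3e-09). The histone chaperone ASF1B fell by 3.62, the nuclease-helicase DNA2 by 3.07 and the primase-associated polymerase POLA1 by 3.01 on the log2 scale. POLD4, the smallest subunit of polymerase delta, was the 1 member that rose: its arrays read 4.29, 3.83, 3.83 and 3.83 at 0 h and 5.73, 6.09 and 6.32 at 36 h (change 2.10 ± 0.26, adjusted p = 9.9e-06). Of 21 genes of nucleotide synthesis 20 fell (median -1.56), led after RRM2 by CTPS1, which makes CTP (-3.01), the thymidine kinase TK1 (-2.50) and UMPS of pyrimidine synthesis (-2.27). IMPDH2 of guanine nucleotide synthesis rose by 0.23 (adjusted p = 0.0226), and lost its call in 6 alternatives, among them arrays centred (0.12, adjusted p = 0.174) and the fits without replicate 3 of 0 h, replicate 1 of 36 h or replicate 2 of 36 h (adjusted p 0.0534 to 0.0692).

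Promoter sequences of RefSeq (assembly GRCh38.p14), from 250 bases before to 50 bases after the start site, were searched for motifs on both strands. The E2F letters TTTCCCGC, TTTCGCGC, TTTGCCGC or TTTGGCGC were present in 3.33% of all 27305 promoters and in 5.84% of the 6129 that belong to tested genes. Among genes that fell at 36 h the share was 7.67%, and 9.82% where the decrease was at least 1 on the log2 scale. Genes that rose held them in 4.13%, and genes not past the threshold in 5.77%. Among origin licensing genes matched to a promoter, 10 of 21 (47.6%) held them, of the polymerase and fork genes 7 of 26 (26.9%), and of the E2F and pocket protein genes 4 of 9 (44.4%). A match is a description of letters and not of a binding site. Promoters of 3 replication genes that hold an E2F motif and fell are shown because origin licensing and fork genes have the lowest list medians, with the motif in capitals. The 3 were chosen by their values, as the largest decreases among members with the motif, and 1 chromosome was left out of the choice.
CDC6: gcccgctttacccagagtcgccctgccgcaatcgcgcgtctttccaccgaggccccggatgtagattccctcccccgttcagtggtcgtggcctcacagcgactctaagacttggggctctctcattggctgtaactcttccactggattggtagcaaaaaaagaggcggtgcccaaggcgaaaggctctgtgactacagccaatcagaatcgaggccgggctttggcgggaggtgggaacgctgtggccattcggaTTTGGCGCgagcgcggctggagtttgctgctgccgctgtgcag
POLE2: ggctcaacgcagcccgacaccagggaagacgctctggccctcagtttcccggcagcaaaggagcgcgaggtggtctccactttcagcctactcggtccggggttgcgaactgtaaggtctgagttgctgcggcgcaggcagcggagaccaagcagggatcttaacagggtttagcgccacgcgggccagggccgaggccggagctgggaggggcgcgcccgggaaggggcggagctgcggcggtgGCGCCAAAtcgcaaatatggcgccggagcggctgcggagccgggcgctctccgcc
MCM2: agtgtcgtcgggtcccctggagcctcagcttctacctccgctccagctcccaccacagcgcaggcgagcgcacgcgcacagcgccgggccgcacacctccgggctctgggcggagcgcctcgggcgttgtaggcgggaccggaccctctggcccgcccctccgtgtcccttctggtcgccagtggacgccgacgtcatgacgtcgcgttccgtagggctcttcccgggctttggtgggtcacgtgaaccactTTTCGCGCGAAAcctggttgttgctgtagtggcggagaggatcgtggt
The CDC6 promoter lies at chr17:40287629-40287928 on the plus strand and its motif, TTTGGCGC, begins 7 bases after the start site. In POLE2 (chr14:49688165-49688464, minus strand) the same letters are on the opposite strand of the gene, at position -5. MCM2 (chr3:127598161-127598460, plus strand) holds TTTCGCGC on both strands, at positions 2 and 6, as 2 overlapping matches. MCM2 itself fell from 11.37 ± 0.08 (SD, n = 4) to 7.87 ± 0.13 (n = 3), a change of -3.50.

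All 56 tested kinases, spindle, kinetochore and checkpoint genes fell at 36 h (median -1.69), beside 32.1% of all genes, and 53 of them by at least 1 on the log2 scale. PKMYT1, an inhibitory kinase of CDK1, read 7.96, 7.84, 7.84 and 7.81 at 0 h and 3.94, 4.16 and 4.16 at 36 h (change -3.78 ± 0.13, adjusted p = 5.2e-10). MYBL2, a transcription factor of late cell cycle genes, fell by 2.93, PLK4, the kinase of centriole duplication, by 2.87 and the centromere protein CENPI by 2.78 on the log2 scale. Most of the decrease came after 18 h, when the median change from 0 h was -0.14. Each of the 56 was lower at 36 h than at 18 h, beside 22.9% of all genes. At 18 h 4 of the 56 were lower than at 0 h, a count without the share of all genes beside it. Fewer cells in division and less RNA per dividing cell cannot be told apart in these bulk samples.

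Motifs of late cell cycle promoters were searched in the same way. The letters TTTGAA, the CHR element, were in 30 of 43 mitotic promoters (69.8%), beside 9.97% of tested genes and 15.4% of all promoters, and CCAAT was in 33 of 43 (76.7%), beside 38.3% and 35.7%. E2F letters were in 3 of the 43 (6.98%). ZWINT, a kinetochore gene that changed by -2.71, is shown because its promoter holds both elements, and was chosen after its value was seen.
ZWINT: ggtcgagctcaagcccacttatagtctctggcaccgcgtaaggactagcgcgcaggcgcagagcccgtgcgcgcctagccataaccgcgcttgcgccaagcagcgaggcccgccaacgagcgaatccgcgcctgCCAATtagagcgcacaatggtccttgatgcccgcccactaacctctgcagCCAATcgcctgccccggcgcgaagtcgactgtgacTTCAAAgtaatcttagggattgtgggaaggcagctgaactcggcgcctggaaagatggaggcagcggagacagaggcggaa
Capitals mark CCAAT at positions -116 and -66 and, on the opposite strand at position -31, TTTGAA, which reads TTCAAA here. The window is chr10:56361210-56361509 on the minus strand.

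Repair and chromatin genes tied to replication fell too. Of 24 genes of homologous recombination, the Fanconi pathway and mismatch repair 22 fell (median -1.58), and after BLM the largest decreases were in the exonuclease EXO1 (-3.83), the translocase RAD54L (-3.37) and the helicase BRIP1 (-2.93, at least 4.58-fold lower). ATM, the kinase that signals double-strand breaks, rose from 9.56, 8.87, 8.88 and 8.65 at 0 h to 10.18, 10.21 and 10.17 at 36 h (1.20 ± 0.16, adjusted p = 2.2e-05). FANCF rose by 0.39 (adjusted p = 0.0103), with the call lost with arrays centred (adjusted p = 0.0514) and without replicate 3 of 36 h (0.0508). Of 34 genes in the list of condensin, cohesin and silencing enzymes, which also holds LMNA, 27 fell and 2 rose (median -0.86). The helicase HELLS, which supports DNA methylation, fell by 3.54, and the condensin subunits NCAPH and NCAPG2 by 2.81 and 2.22 on the log2 scale. SETDB1, a histone H3 methyltransferase, rose by 1.16 ± 0.14 (adjusted p = 6.4e-06) with the probe set used. Its other probe set had means of 5.22 at 0 h and 5.17 at 36 h, a change of -0.05. LMNA, which encodes lamins A and C, rose by 0.55 (adjusted p = 0.0175), with the call lost in 4 alternatives, among them the fits without replicate 3 of 0 h (adjusted p = 0.0539) and without replicate 1 of 36 h (0.0828).

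Genes of the ribosome biogenesis list, which also holds MAX and MYCN, were lower in 21 of 24 cases and higher in 2 (median -1.28). The 2 that rose were MAX and MYCN. At 18 h 20 of the 24 were already lower, a count without the share of all genes beside it. The nucleolar proteins NOP16 (-2.77), UTP20 (-2.55), RRS1 (-2.53) and PNO1 (-2.42) had the largest decreases. MAX, the partner of MYC proteins, rose by 0.71 ± 0.08 (adjusted p = 4.0e-06) with the probe set used. The mean of its 5 probe sets changed by 0.22, and the others with means above log2 4 changed by 0.28 and 0.16. MYCN, below log2 4 on the 0 h arrays, changed by 0.93 (adjusted p = 0.0109, at least 1.21-fold higher), and lost its call with values below log2 4 set to 4 (adjusted p = 0.208) and without replicate 1 of 36 h (0.0649).

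Collagens and matrix proteins rose in 39 of 47 cases, 32 of them by at least 1 on the log2 scale, with 1 lower and a median of 1.57. VCAN, a large proteoglycan, was between 2.43 and 2.51, below log2 4, at 0 h and at 10.36, 5.82 and 6.20 at 36 h (change 4.98 ± 0.84, adjusted p = 0.00014). Replicate 1 was more than 4 log2 units above the other 2 arrays. DCN, a small proteoglycan that binds collagen, read 4.11, 2.89, 2.90 and 2.90 at 0 h and 9.10, 7.54 and 7.72 at 36 h (change 4.92 ± 0.53), and its call was lost without _x_at and _s_at probe sets (0.66, adjusted p = 0.194). The DCN probe set then left had means of 2.89 at 0 h and 3.55 at 36 h, both below log2 4. The fibrillar collagen gene COL1A2 rose by 4.24, the basement membrane protein NID2 by 3.32 and the collagen hydroxylase subunit P4HA2 by 3.93. The laminin chain LAMA4 was below log2 4 at 0 h and at least 5.90-fold higher at 36 h. NID1, with a 0 h mean of 3.67, also below log2 4, changed by 3.21. PLOD2, which hydroxylates collagen lysines, fell from 8.37 ± 0.23 (SD, n = 4) to 7.28 ± 0.43 (n = 3), a change of -1.10 (adjusted p = 0.00026). Elastin, ELN, changed by -0.41 and fibulin 5, FBLN5, by -0.54, neither past the threshold.

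Receptor tyrosine kinases and their feedback inhibitors rose in 19 of 30 cases and fell in 4 (median 0.85), or in 2 with values below log2 4 set to 4. EGFR was below log2 4 at 0 h and at 6.28, 6.14 and 6.17 at 36 h (at least 4.58-fold higher, change 2.52 ± 0.15, adjusted p = 1.4e-08), as read by 1 of its 6 probe sets, whose mean change was 0.41. PDGFRB rose by 2.37, FGFR1 by 1.45 and FGFR2 by 1.84. Inhibitors that these receptors induce rose as well, SPRY2 from 7.03, 7.59, 7.50 and 7.16 at 0 h to 9.86, 10.07 and 10.18 at 36 h (2.72 ± 0.15, adjusted p = 6.3e-09), SPRY4 by 2.44 and DUSP6 by 0.88. IGFBP7, a secreted protein related to the insulin-like growth factor binding proteins, read 4.45, 4.58, 5.21 and 6.93 at 0 h and 10.12, 9.42 and 9.96 at 36 h (change 4.54 ± 0.44). KIT, the receptor of stem cell factor, fell from between 5.60 and 7.03 at 0 h to below log2 4 at 36 h (at least 6.02-fold lower). EPHA2 fell by 0.88. The MET call was a change of -1.26 between means of 3.68 and 2.42, both below log2 4. FGFR3 was at least 1.56-fold lower (change -2.08) and lost its call with values below log2 4 set to 4 (-0.72, adjusted p = 0.0622).

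Chemokine and cytokine genes were mostly dim, and 10 of 24 were tested, of which 3 rose, a share near that of all genes, and 0 fell (median 0.40). CXCL12, the ligand of CXCR4, was between 3.28 and 3.55 at 0 h and at 8.18, 8.07 and 8.41 at 36 h (at least 18.6-fold higher, change 4.81 ± 0.22, adjusted p = 1.6e-09). IL1A rose by 1.31 (adjusted p = 0.00616) with the probe set used and changed by -0.40 (adjusted p = 0.168) with the other. KDR, a receptor for VEGF and an endothelial marker, read 3.67, 3.69, 3.44 and 3.84 at 0 h and 7.14, 6.10 and 6.44 at 36 h (at least 5.89-fold higher, change 2.90 ± 0.26, adjusted p = 5.0e-07). The summed level of the 8 endothelial markers went from 5.83 to 5.92 at 0 h to 6.84 to 7.55 at 36 h, and the other 7 stayed below log2 4.

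Of 31 neural genes with a probe set 19 were tested, of which 10 were higher and 6 lower (median 1.48), the lower share being near the 32.1% of all genes. Members below log2 4 at 0 h, such as MAP2, were tested only because they reached it on later arrays, so the higher count is partly built in. The adhesion molecule NCAM1 read 5.78, 3.51, 3.68 and 4.18 at 0 h and 8.38, 8.58 and 8.47 at 36 h (change 4.19 ± 0.42; mean of its 4 probe sets 1.04). MAP2, a dendritic microtubule protein, was between 2.32 and 2.36 at 0 h and at 6.48, 5.58 and 6.02 at 36 h (at least 4.08-fold higher), and the neurofilament gene NEFL rose by 3.47 ± 0.34. Beside PCDH8, the neurexin-family gene CNTNAP2 fell by 2.63. Of 18 mesenchymal factors 10 rose and 1 fell (median 0.71). SNAI2, a repressor of epithelial genes, read 6.83, 8.14, 7.96 and 8.03 at 0 h and 11.14, 11.03 and 11.23 at 36 h (change 3.39 ± 0.28, adjusted p = 2.2e-07). SOX9, a factor of chondrogenesis, rose by 2.81, N-cadherin, CDH2, by 2.37 and the calcium-binding protein S100A4 by 1.60. Tissue-nonspecific alkaline phosphatase, ALPL, was the member that fell (-1.53, adjusted p = 0.0107, at least 1.75-fold lower), and lost its call with the ACTB covariate (adjusted p = 0.151).

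Actin, contractile and YAP target genes had no common direction, with 5 of 26 higher, 10 lower and a median of -0.06. The lower share was near the 32.1% of all genes, and the higher share was below their 33.2%. Fits with replicates 2 and 3 averaged and with the ACTB covariate each left 6 lower. TEAD4, a DNA-binding partner of YAP, fell by 2.57 ± 0.36, while WWTR1, or TAZ, rose from 11.46 ± 0.08 (SD, n = 4) to 12.92 ± 0.15 (n = 3), a change of 1.46. Caldesmon, CALD1, rose by 1.25. AXL rose by 1.38 (adjusted p = 0.0292), and lost its call in 6 alternatives, among them the fits without replicate 1 of 0 h (adjusted p = 0.0633), replicate 2 of 36 h (0.0814) or replicate 3 of 36 h (0.0789).

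Stress response genes differed between the 36 h arrays. Of 25 genes of the integrated stress response, in which phosphorylation of eIF2 alpha raises ATF4, 15 rose and 0 fell (median 0.93), and 8 rose with replicates 2 and 3 averaged. NUPR1, a stress-induced chromatin protein, read 4.34, 2.81, 3.29 and 3.26 at 0 h and 6.26, 9.73 and 9.63 at 36 h (change 5.12 ± 0.71, adjusted p = 2.6e-05). GDF15, a secreted stress cytokine, read 4.08, 2.39, 2.48 and 3.06 at 0 h and 6.16, 8.89 and 8.99 at 36 h (5.01 ± 0.59), and DDIT4, an inhibitor of mTORC1, 6.23, 4.59, 4.63 and 4.71 at 0 h and 8.45, 10.28 and 10.51 at 36 h (4.71 ± 0.52). In each of these 3 genes replicate 1 was the lowest array at 36 h and the highest at 0 h. VLDLR, a lipoprotein receptor that ATF4 can raise, did not differ in this way, with 7.67, 7.60 and 7.61 at 36 h (change 4.94 ± 0.38, at least 12.4-fold higher).

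Among chaperones and folding genes of the endoplasmic reticulum, 5 of 17 rose, a share near that of all genes, and 0 fell (median 0.41), but without replicate 1 of 36 h 16 rose, with limma array weights 15, and with ACTB as a covariate or replicates 2 and 3 averaged 3. SEL1L, part of the protein degradation machinery of the endoplasmic reticulum, read 8.67, 8.74, 8.71 and 8.74 at 0 h and 9.19, 11.44 and 11.34 at 36 h (change 1.94 ± 0.39, adjusted p = 0.0006). DNAJB9, a co-chaperone induced by unfolded protein, read 8.93, 11.09 and 11.10 at 36 h against a 0 h mean of 8.59 ± 0.19 (SD, n = 4). EDEM1 was at 6.77, 8.19 and 8.06 at 36 h against 6.58 to 6.64 at 0 h (1.06, adjusted p = 0.00354), and lost its call with the ACTB covariate (0.0538) and with replicates 2 and 3 averaged (0.0553). In each of these 3 genes replicates 2 and 3 lay well above 0 h at 36 h, while replicate 1 was nearer to 0 h than to them. The fit without replicate 1 rests at 36 h on replicates 2 and 3 alone, which were close to each other. The part that the standing apart of replicate 1 has in these counts was not tested. Of the 18 h arrays replicate 1 read highest for all 3 genes, and both 53 h arrays of SEL1L (10.57 and 10.33) and DNAJB9 (10.82 and 10.97) lay above 0 h. The letters CCAAT, which the factor NF-Y binds, were in 15 of 16 promoters of this list (93.8%), beside 38.3% of tested genes.

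Aminoacyl-tRNA synthetases, which charge tRNAs and are partly under ATF4, rose in 5 of 16 cases and fell in 6, both near the shares of all genes, with a median of 0.05 that turned to -0.07 with arrays centred. Without replicate 1 of 36 h 9 rose, without replicate 2 or replicate 3 of 36 h 3 rose, 2 rose with replicates 2 and 3 averaged, 8 with array weights and 3 with ACTB as a covariate or the 7 arrays of 0 h and 36 h alone. CARS1 rose by 1.12 and EPRS1 by 0.68. WARS1 read 8.85, 11.42 and 11.10 at 36 h against 9.10 to 9.26 at 0 h (1.30, adjusted p = 0.0146), so that replicate 1 was below all 0 h arrays, and its call was lost in 5 alternatives, among them the fits without replicate 2 of 36 h (adjusted p = 0.0951) and without replicate 3 of 36 h (0.0803). FARSA and VARS1 fell by 1.53 and 1.19 on the log2 scale.

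**Figure D4:**
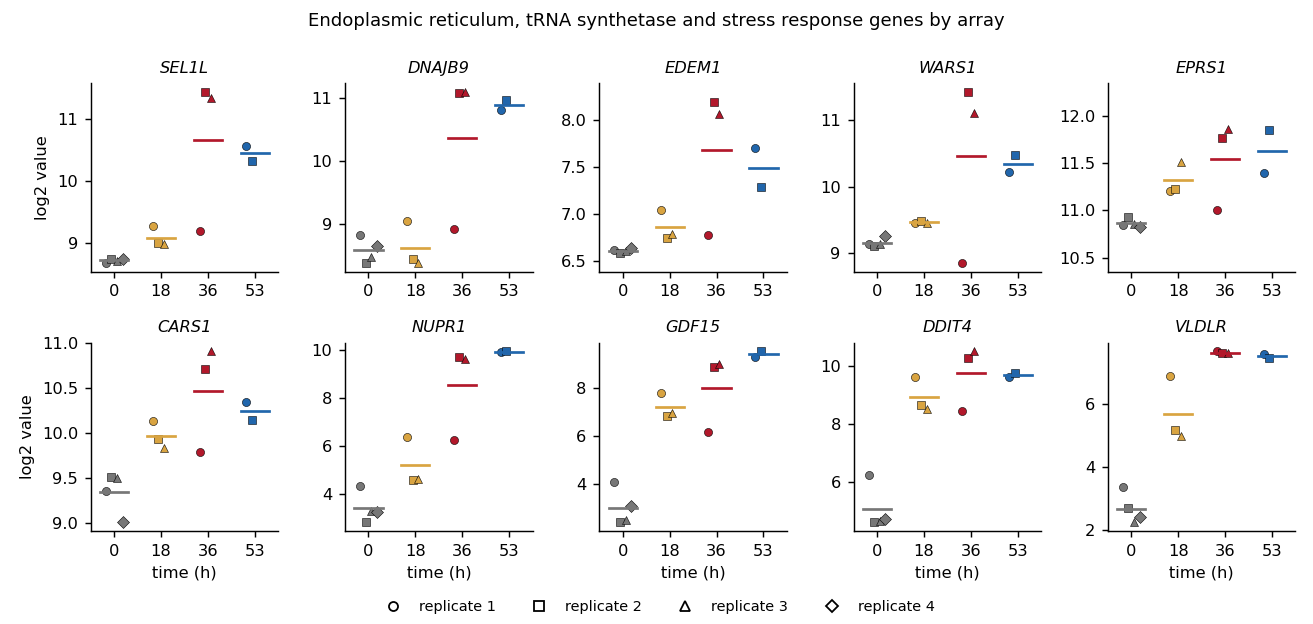
Log2 values (y axis, 1 scale per gene) of 10 genes of the endoplasmic reticulum, tRNA synthetase and stress response lists at 0 h, 18 h, 36 h and 53 h (x axis); symbols are single arrays, shapes give the replicate number and bars are group means. Replicates 2 and 3 of SEL1L at 36 h are at 11.44 and 11.34 while replicate 1 is at 9.19, and for VLDLR the 3 arrays lie between 7.60 and 7.67.

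Lysosome and autophagy genes rose in 20 of 22 cases with 1 lower (median 0.93). The alpha-glucosidase GAA was below log2 4 at 0 h and at least 1.93-fold higher at 36 h. The collagen-degrading protease CTSK rose by 1.76 ± 0.32. The tripeptidyl peptidase TPP1 read 8.85, 8.20, 8.17 and 8.50 at 0 h and 10.58, 9.99 and 9.83 at 36 h (1.70 ± 0.21, adjusted p = 1.0e-05). The alpha-galactosidase GLA fell by 1.21. Of 20 genes of interferon responses and MHC class I presentation 15 rose and 0 fell (median 0.77), 8 of 11 where log2 6 was required. IRF9, the DNA-binding subunit of the interferon-stimulated factor ISGF3, read 4.12, 3.83, 3.78 and 4.22 at 0 h and 6.94, 6.36 and 6.27 at 36 h (2.54 ± 0.32, adjusted p = 1.0e-05). The immunoproteasome subunit PSMB8 changed by 1.99 from a 0 h mean below log2 4. IFI35 and IFIT3 were below log2 4 on all 0 h arrays and at least 1.31-fold and 1.76-fold higher at 36 h. The peptide transporter subunit TAP1 rose by 1.11, and for B2M, the light chain of MHC class I, the change was -0.15, which did not pass the threshold.

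Respiratory chain genes were lower in 15 of 35 cases and higher in 5 (median -0.10). The higher count was 1 with arrays centred or without replicate 1 of 36 h and 2 with the replicate number as a block, but 8 with a second quantile normalization and 9 with array weights. ATP5MC1, a subunit of the ATP synthase ring, fell by 1.58 ± 0.11, CYC1 of complex III by 0.66, NDUFA9 of complex I by 0.58 and SDHA of complex II by 0.55, while NDUFB5 rose by 0.53. COX6C rose by 0.33, with the call lost with arrays centred (adjusted p = 0.0735) and without replicate 1 of 36 h (0.0843). Of 24 glycolysis and hypoxia genes 11 fell and 4 rose (median -0.22). The platelet phosphofructokinase PFKP fell by 1.42 and the enolase ENO2 by 1.65, while the hypoxia-responsive gene NDRG1 rose by 2.30 and the glucose transporter SLC2A3 by 1.61. Cholesterol and fatty acid synthesis genes were lower in 6 of 18 cases and higher in 3 (median -0.38), the lower share being near that of all genes. These counts moved with single arrays: without replicate 1 of 36 h, 3 were lower and 6 higher, and without replicate 3 of 36 h, 10 were lower. With array weights 6 were higher, and with ACTB as a covariate 1. FASN fell by 1.11 and EBP by 1.01, and LSS rose by 0.80 ± 0.15. SREBF1, the regulator of lipid synthesis genes, rose by 1.62 and the desaturase SCD by 0.81. Both calls were lost with the ACTB covariate (adjusted p = 0.0817 and 0.0959), and that of SCD with replicates 2 and 3 averaged (0.0642).

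Set against 18 h, 1597 genes (21.9%) were higher at 36 h and 1675 (22.9%) lower. With replicates 2 and 3 averaged these were 834 and 1062. This is the test of whether the change from 0 h differed between the 2 times, and both changes share the 0 h arrays. Fusion-activated genes had a median change of -1.03 at 18 h, and 16 of 30 were lower at 36 h than at 18 h. Ribosome biogenesis had a median of -0.77 at 18 h and 17 of 24 lower thereafter. Mitotic genes, at -0.14, and collagens and matrix proteins, at 0.39, with 33 of 47 higher at 36 h than at 18 h, had larger changes at 36 h than at 18 h. PCDH8 and SUV39H2 were below log2 4 at both 18 h and 36 h, while MGP read 2.25, 2.53 and 2.76 at 18 h and 9.61, 8.11 and 8.65 at 36 h.

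The level at 36 h was also compared with those of both neighbouring times together, by the contrast of 36 h against the mean of 18 h and 53 h, where 428 genes (5.86%) were higher and 557 (7.63%) lower. This contrast depended on single arrays. With replicates 2 and 3 averaged 105 genes passed, 23 higher and 82 lower, with the replicate number as a block 692 were higher, and leaving out 1 array gave between 314 (without replicate 2 of 36 h) and 1611 (without replicate 1 of 18 h). Counts without replicate 2 or 3 of 18 h (558 and 574), replicate 3 of 36 h (507) or replicate 1 or 2 of 53 h (626 and 604) were also more than 1.5 times below 985. Of the called genes 171 higher and 128 lower had all 36 h arrays beyond every array of 0 h, 18 h and 53 h. The share of all tested genes with such arrays was not counted. Genes that changed by 36 h and then stayed level can pass this contrast too. MCM10 passed (adjusted p = 0.00066) with means of 9.32 at 18 h, 5.52 at 36 h and 5.69 at 53 h.

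FLRT1, a leucine-rich repeat protein that interacts with FGF receptors, was below log2 4 at 0 h, at 5.43, 4.10 and 4.15 at 18 h, at 6.46, 6.88 and 6.09 at 36 h and at 4.38 and 4.39 at 53 h, so that it peaked at 36 h among these times (2.00 ± 0.26 above the mean of 18 h and 53 h, adjusted p = 0.00065). CXCL14 was higher than that mean by 2.43, but 36 h against 53 h alone did not pass the threshold (0.68, adjusted p = 0.384). PELI2 was higher than the same mean by 1.67, the actin-binding protein AVIL by 1.59 and SELENBP1 by 1.43. TYRP1, an enzyme of melanin synthesis, was higher by 1.45 (adjusted p = 0.0176), with an adjusted p of 0.0946 when replicates 2 and 3 were averaged and 0.0707 without replicate 2 of 36 h.

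Lower than the same mean were CDK2 (-1.18 ± 0.12, adjusted p = 0.00019) and RRS1 (-1.10 ± 0.17, adjusted p = 0.00165). CDK2 read 8.17, 8.61 and 8.44 at 18 h and 6.86 and 7.17 at 53 h, all above its 36 h arrays, though 36 h against 53 h alone did not pass the threshold (-0.48, adjusted p = 0.0561). The cathepsin CTSC (-1.21), the fructose bisphosphatase TIGAR (-1.08) and the scavenger receptor SCARA3 (-1.15) had adjusted p-values of 0.0796, 0.0818 and 0.110 with replicates 2 and 3 averaged, and SCARA3 one of 0.0593 without replicate 2 of 36 h. SORBS2, which the contrast also called (-1.51), was below log2 4 on all arrays up to 36 h and at 5.51 and 5.54 at 53 h, so its call is that of an increase after 36 h.

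**Figure D5:**
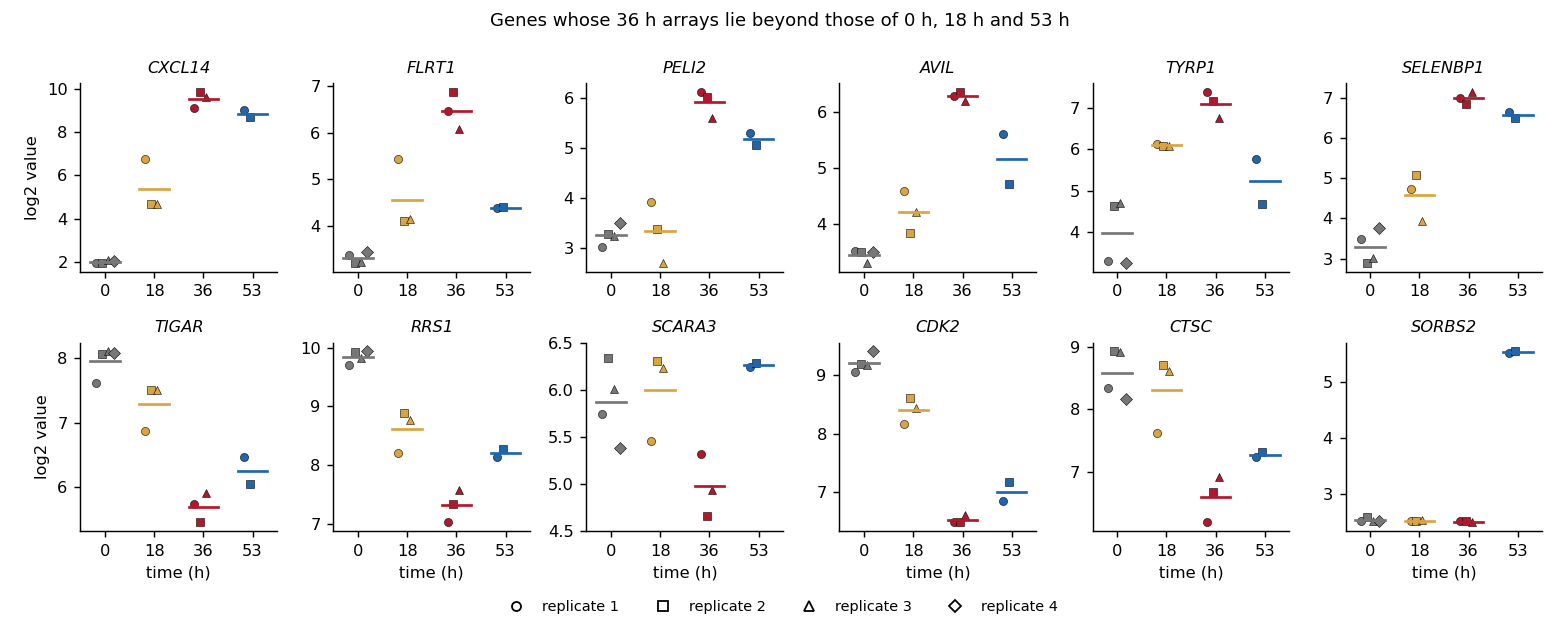
Log2 values (y axis, 1 scale per gene) of the 6 highest and 6 lowest genes in the contrast of 36 h with the mean of 18 h and 53 h, whose 36 h arrays lie beyond those of 0 h, 18 h and 53 h (x axis: time); symbols are single arrays by replicate number and bars are group means. FLRT1 is at 6.09 to 6.88 at 36 h and at 4.38 and 4.39 at 53 h, and SORBS2 is flat near 2.5 until it reaches 5.51 and 5.54 at 53 h.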

How the data were processed

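RNA of 16 samples of A673 cells was measured on Affymetrix arrays. The authors deposited log2 values per probe set, and GCRMA is named in the submitters' processing notes without a version or settings. Of 22277 probe sets 62 are controls, 19070 have 1 gene symbol, 1043 several and 2164 none. The brightest probe set by mean stood for each of 11963 genes, and 7304 of these with log2 4 or more on at least 2 arrays were tested.

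A model with 1 mean per time was fitted to all 16 arrays with limma 3.58.1 in R 4.3.3 (eBayes with a trend, Benjamini-Hochberg adjustment over the 7304 genes, threshold 0.05). On simulated data 67, 67 and 66 of the 7304 genes were changed by 0.5, 1 and 2 on the log2 scale. Of these, 52.2%, 86.6% and 100% were recovered at 36 h against 0 h, with 11 false calls. In the data 4772 genes passed, far more than were changed in the simulation. Recovery and false calls with so many changes, or with arrays as close as some replicates here, were not tested. The simulation therefore gives no error rate for the 4772 calls. Errors beside changes are standard errors of the fit. The number of arrays limits the precision.

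Genes were named by a rule: FLI1 and EWSR1, the 12 highest and 12 lowest changes whose groups do not overlap, up to 4 genes with the largest changes per list and 2 against its direction, all E2F, pocket protein and CDK inhibitor genes, 6 and 6 from the contrast with 18 h and 53 h, and 5 bright genes. The members and lists were chosen with earlier results of these data known. Same-numbered arrays of 0 h and 36 h deviated together from their group means (correlations 0.304, 0.214 and 0.286), which by the rule used pairs the arrays. Numbers 2 and 3 could not be told apart, since replicate 2 of 0 h with replicate 3 of 36 h gave 0.252 and the reverse pair 0.202. Alternatives tried covered the low-value filter, scaling, probe sets, array weights, the replicate block, an ACTB covariate, averaged replicates and leaving out each array.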

Additional observations from a re-analysis of the deposited data

Results flagged for a closer look

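For 22 of the 154 named genes, 1 array at 0 h stood apart from the other 3 by Dixon's critical value for the gap to its nearest neighbour over the group's range. Chance alone flags about 1 in 20 groups. Replicate 1 was the array apart in 11 genes: GAS2 (a gap of 0.909 of the range), UPP1 (0.856), CCNE2 (0.984), POLD4 (0.995), DCN (0.991), PLOD2 (0.841), SNAI2 (0.867), DDIT4 (0.927), TIGAR (0.892), LDHA (0.896) and TSPAN13 (0.909). Replicate 4 was apart in 8 genes: DKK1 (0.871), MGP (0.866), IGFBP5 (0.837), MCM10 (0.969), RBL1 (0.879), FARSA (0.918), PFKP (0.868) and LSS (0.862). Replicate 2 was apart in GAA (0.851) and SORBS2 (0.891), and replicate 3 in AVIL (0.918). In MCM10 the range itself was small, from 10.36 to 10.43, and in POLD4 the other 3 arrays were all at 3.83.

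The change against 0 h differed between 36 h and 18 h, by the contrast of these times in limma, for 3272 genes. In 16 genes the changes at 18 h and 36 h both passed the threshold in opposite directions.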

How the results depend on the processing

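At 36 h against 0 h, 4772 genes passed, and 4399 to 4722 when 1 array was left out (2207 to 2409 higher, 2191 to 2331 lower). The replicate block gave 4766. Without a filter 3943 genes were lower, without _x_at and _s_at probe sets, which leaves fewer genes, 2855 passed (1441 higher, 1414 lower, 1190 by at least 1), and 941 (468 and 473) passed a test against a change of 1. Against 18 h, 1910 (950 and 960) passed without _x_at and _s_at probe sets and 1896 (834 and 1062) with replicates 2 and 3 averaged, array weights gave 2441 higher, and leaving out 1 array gave 2518 to 3318 (1146 to 1608 higher, 1318 to 1718 lower). Against the mean of 18 h and 53 h, 598 (255 and 343) passed without those probe sets, 3095 (1651 and 1444) with array weights and 105 (23 and 82) with replicates averaged, 692 were higher with the replicate block and 248 with the ACTB covariate, and leaving out 1 array gave 314 to 1611 (97 to 763 higher, 217 to 848 lower). The causes were not tested. Of the 151 named genes past the threshold at 36 h against 0 h, 131 kept their direction and side of the threshold under each alternative other than the test against a change of 1. IL1A changed sign, to -0.40 without _x_at and _s_at probe sets. The replicate block changed no call of a named gene. Values below log2 4 carry little information in GCRMA, which limits folds of dim genes.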
